A study of Mus musculus with 2 samples.

Results

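Of 6629 p300 peaks listed for the embryonic mouse neocortex, 554 (8.36%, exact Clopper-Pearson 95% interval 7.70 to 9.05%) lay outside genes but close to the start of one. From this list the authors had already removed peaks touching an exon, under 2.5 kb from a start or possibly mapped non-uniquely. A peak was counted here if its midpoint fell outside the body of every annotated gene of any type and at most 20 kb from the nearest protein-coding transcription start site (TSS), where each of 22367 protein-coding genes contributed 1 start (from the transcript whose coding sequence is longest). The other peaks comprised 1239 intergenic peaks over 20 and up to 100 kb from a coding start, 1818 intergenic peaks farther away and 3018 peaks inside a gene body. The tissue was the dorsal cerebral wall of Swiss Webster embryos at embryonic day 14.5 (E14.5), freed of hippocampus, cortical hem and choroid plexus, snap frozen and then fixed in formaldehyde. One sample of chromatin gave 1 library immunoprecipitated with an antibody against p300 (C-20) and 1 input library, and there was no replicate. How many embryos were pooled is not given in the sources used here. The deposited list gives positions on mm9 without scores or read counts, so the depth behind a single peak is unknown, and the intervals below cover counting error only.

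The co-activator p300 is a histone acetyltransferase that does not read DNA itself and is brought to chromatin by sequence-specific transcription factors, so its binding marks active enhancers. At mid-neurogenesis the cortical wall holds radial glia, the dividing stem cells along the ventricle, intermediate progenitors above them, and newborn neurons that settle as deep layers first and upper layers later. Factors of the basic helix-loop-helix (bHLH) family, which bind E boxes, drive cells along this path, and homeodomain, Sox, POU and Nfi proteins act beside them.

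The sequences below are the middles of a few such peaks, picked for the motifs they hold and so not typical of the rest. Each is the central 200 bases of a peak next to a gene of the cortical lists described further on, read 5′ to 3′ on the plus strand of mm9, in lower case with matches to the searched motifs, on either strand, in capitals. Shown are the windows with at least 3 kinds of motif and, from those with 2 kinds, windows of Neurog2, Neurod2 and Btg2, which had 3 or more peaks each. Most windows of the listed genes held fewer kinds. Those of Fezf2, Hes5 and the other Neurog2 peaks (4033, 4034 and 4036) were among the windows with 0 kinds and are not shown. The motifs were 4 E boxes (CAGATG, bound by Neurog2 and Neurod factors, CAGCTG, bound by several bHLH factors, CACCTG, bound by E proteins, and CACGTG, bound by factors of the Myc class), the homeodomain site TAATTA, the Nfi monomer site TTGGCA, the Sox site ACAAAG with its other form ACAATG, the POU octamer ATGCAAAT, the Rfx monomer site GTTGCC, the T-box site GGTGTGA, the AP-1 site TGANTCA, the cyclic AMP response element TGACGTCA and the GC box GGGCGG. A match to the reverse complement counts equally, and overlapping matches share their capitals.
Neurog2 peak 4035, chr3:127349147-127349346: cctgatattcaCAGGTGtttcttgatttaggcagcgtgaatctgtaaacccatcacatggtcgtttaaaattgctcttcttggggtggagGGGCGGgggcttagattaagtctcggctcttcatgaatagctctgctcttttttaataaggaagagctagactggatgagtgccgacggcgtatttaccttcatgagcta
Btg2 peak 275, chr1:135989392-135989591: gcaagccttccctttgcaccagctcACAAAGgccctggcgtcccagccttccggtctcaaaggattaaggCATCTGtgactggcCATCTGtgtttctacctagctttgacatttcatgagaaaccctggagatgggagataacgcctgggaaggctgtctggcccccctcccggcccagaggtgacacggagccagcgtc
Neurod2 peak 998, chr11:98180627-98180826: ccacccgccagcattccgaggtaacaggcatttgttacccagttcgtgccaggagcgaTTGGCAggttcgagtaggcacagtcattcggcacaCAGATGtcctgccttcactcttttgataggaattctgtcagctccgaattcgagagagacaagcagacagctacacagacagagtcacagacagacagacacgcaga
Neurod2 peak 1000, chr11:98195266-98195465: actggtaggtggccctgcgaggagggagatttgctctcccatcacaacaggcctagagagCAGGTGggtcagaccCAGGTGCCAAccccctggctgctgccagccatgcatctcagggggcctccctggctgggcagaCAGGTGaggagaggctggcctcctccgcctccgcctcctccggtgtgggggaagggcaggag
Dll1 peak 2648, chr17:15517732-15517931: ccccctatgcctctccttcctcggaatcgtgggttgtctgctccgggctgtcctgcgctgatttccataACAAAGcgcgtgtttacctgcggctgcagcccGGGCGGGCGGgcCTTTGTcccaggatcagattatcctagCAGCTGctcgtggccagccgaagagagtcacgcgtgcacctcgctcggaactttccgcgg
Plxna2 peak 454, chr1:196439738-196439937: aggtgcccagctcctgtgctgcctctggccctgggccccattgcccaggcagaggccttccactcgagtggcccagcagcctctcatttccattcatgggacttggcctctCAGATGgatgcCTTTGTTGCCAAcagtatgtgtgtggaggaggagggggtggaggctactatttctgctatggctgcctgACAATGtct
Unc5a peak 1654, chr13:55037651-55037850: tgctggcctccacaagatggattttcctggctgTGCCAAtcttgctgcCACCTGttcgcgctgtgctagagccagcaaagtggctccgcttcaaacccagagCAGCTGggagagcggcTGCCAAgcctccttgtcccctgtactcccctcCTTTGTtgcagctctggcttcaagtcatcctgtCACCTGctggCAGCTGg
Ephb2 peak 4557, chr4:136397047-136397246: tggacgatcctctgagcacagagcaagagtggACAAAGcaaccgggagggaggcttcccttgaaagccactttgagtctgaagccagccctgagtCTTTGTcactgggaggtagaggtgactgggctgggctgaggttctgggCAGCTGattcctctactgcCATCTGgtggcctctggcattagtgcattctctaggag
Cntn2 peak 264, chr1:134454757-134454956: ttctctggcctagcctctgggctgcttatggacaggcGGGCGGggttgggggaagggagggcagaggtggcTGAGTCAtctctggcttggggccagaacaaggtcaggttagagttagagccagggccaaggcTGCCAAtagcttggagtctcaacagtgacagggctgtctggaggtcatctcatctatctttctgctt

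E boxes stood in 8 of these 9 windows, all but that of Cntn2, and Nfi monomer sites in 5. The Plxna2 window held 5 kinds of motif, 3 of them overlapping in 1 run, where a Sox site, an Rfx monomer site and an Nfi monomer site share bases. The Unc5a window held 2 matches each to the Nfi monomer site, to the E box CAGCTG and to the E box form CACCTG, and the Neurod2 window of peak 1000 held 3 copies of CACCTG, 1 of them overlapping an Nfi monomer site. A match is a run of letters and was not tested for binding.

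The 554 peaks lay a median of 10.2 kb from the coding start (95% interval of the median 9.44 to 10.6 kb), with quartiles at 6.0 and 14.4 kb. Of them, 400 (72.2%, interval 68.3 to 75.9%) were upstream and 154 downstream, beyond the far end of the gene. Intergenic sequence within 20 kb of a coding start is itself unequal, with 221.6 Mb upstream and 70.26 Mb downstream, since a downstream position is reached only past short genes. Genes with a downstream peak had a median length of 3.96 kb, against 14.2 kb for all genes with a peak. Beyond 2.5 kb of the start, 392 of 546 peaks (71.8%, interval 67.8 to 75.5%) were upstream, where 73.4% of the sequence lay, so the 2 sides held peaks in about the proportion of their length. At the limit of 20 kb the last peaks counted were those of Scrg1 (19832 bp), Ptprk (19906 bp) and Syf2 (19932 bp), and the first left out were those of Dync1i2 (20006 bp), 4930544L04Rik (20052 bp) and A730018C14Rik (20053 bp).

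**Figure D1:**
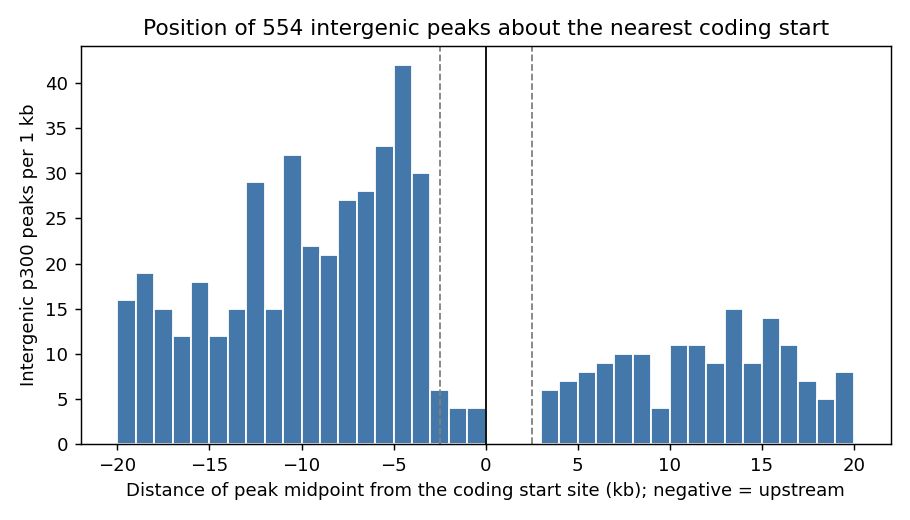
Number of intergenic p300 peaks in each 1 kb (vertical axis) by distance in kb of the peak midpoint from the nearest coding start (horizontal axis, upstream negative), with dashed lines at 2.5 kb. The 400 upstream peaks thin out from about 5 kb outward, the 154 downstream peaks do not, and only 8 peaks stand inside the dashed lines.

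Only 8 peaks lay under 2.5 kb from a coding start, a distance within which the authors had removed peaks by another gene annotation. All 8 were upstream. Closest were those of Zfyve9 (48 bp), which encodes an endosomal adaptor of TGF-beta signalling, Gm11043 (171 bp), Rassf8 (266 bp), Gm15831 (459 bp) and Gm11733 (1547 bp). They were followed by Gm4889 (1714 bp), Gm9881 (1995 bp) and Rara (1997 bp), the retinoic acid receptor alpha, and 5 of the 8 genes carry only model names. Starts not counted here could be closer, and for 201 of the 554 peaks (36.3%, interval 32.3 to 40.4%) the start of some annotated transcript of any gene was nearer than the coding start. A single coding start lay within 20 kb of 440 peaks, whereas 114 (20.6%) had 2 or more and 22 had 3 or more. Which gene a peak acts on was not measured, and the gene named for a peak is the one with the nearest coding start.

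Per megabase of intergenic sequence, peaks at 2.5 to 20 kb numbered 2.20 (exact Poisson 95% interval 2.02 to 2.39), with 2.15 (1.94 to 2.37) upstream and 2.33 (1.97 to 2.73) downstream. The density was 2.07 (1.67 to 2.54) at 2.5 to 5 kb, 2.17 (1.85 to 2.52) at 5 to 10 kb and 2.26 (2.01 to 2.54) at 10 to 20 kb, and these intervals overlapped. Farther out it was 2.70 (2.49 to 2.92) at 20 to 50 kb and 2.97 (2.74 to 3.21) at 50 to 100 kb, both intervals lying above that of the 2.5 to 20 kb range, and 2.34 (2.24 to 2.45) beyond 100 kb, which overlapped it. Over the whole assembly, genes included, all peaks numbered 2.59 per Mb (2.53 to 2.65). The value under 2.5 kb, 0.185 per Mb (0.0797 to 0.364), follows the authors' filter. That filter used exons and starts of another annotation, while distances here run from 1 start per coding gene. It could thus also have removed peaks beyond 2.5 kb, and how far it lowered those densities was not tested. No test was made between distances, since peaks of 1 library are not replicates.

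**Figure D2:**
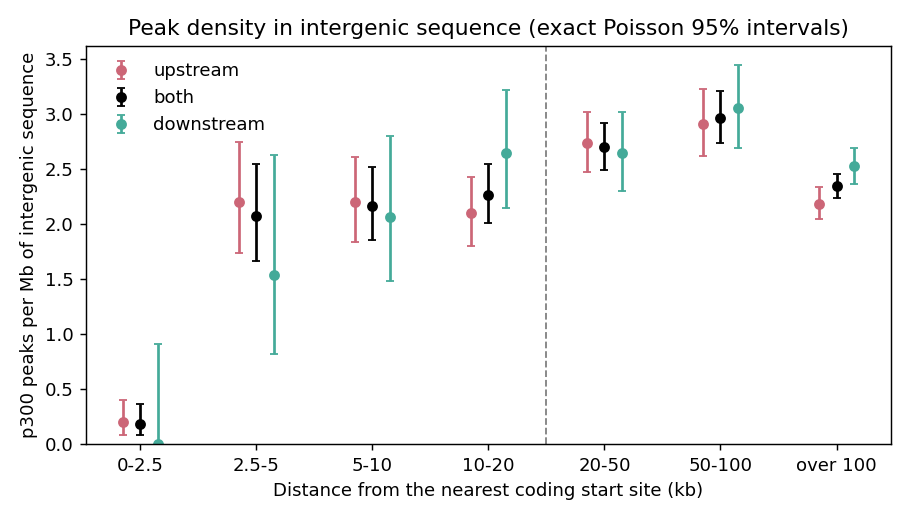
Intergenic p300 peaks per Mb of intergenic sequence (vertical axis) by distance from the nearest coding start in kb (horizontal axis), upstream, downstream and both sides together, with exact Poisson 95% intervals and a dashed line at 20 kb. Density for both sides was between 2.07 and 2.26 from 2.5 to 20 kb and reached 2.97 at 50 to 100 kb.

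In size the peaks near coding starts resembled the rest. Their median width was 1014 bp (95% interval 984 to 1041 bp, range 441 to 4388 bp), beside medians of 1012 bp for intergenic peaks over 20 to 100 kb away, 1022 bp beyond 100 kb and 1019 bp inside genes, all 3 within that interval. Their median GC content was 49.3% (48.5 to 49.6%, range 30.8 to 73.7%), against 47.4% at 20 to 100 kb, 42.0% beyond 100 kb and 45.4% inside genes. Intergenic sequence itself was 42.8% GC at 5 to 10 kb, 42.5% at 20 to 50 kb and 39.4% beyond 100 kb, so the peaks exceeded the sequence around them at each of these distances. Another p300 peak lay within 5 kb of 57 members (10.3%, 7.89 to 13.1%), beside 13.0% at 20 to 100 kb, 11.1% beyond 100 kb and 12.7% inside genes, values which the interval covers.

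The widest peak, 4388 bp, lay downstream of Btg2, an antiproliferative gene switched on in neurogenic progenitors. Next came those of Hist1h4h (3453 bp), a histone gene in a cluster of histone genes, Sox4 (2920 bp), a Sox factor of newborn neurons, Dll1 (2810 bp), a Notch ligand, and Lmo1 (2611 bp), a LIM-only co-regulator. The narrowest were at Cabp7 (441 bp), Efcab5 (466 bp), Vps37b (481 bp), Nipal2 (508 bp) and Tgm3 (533 bp). Among the highest GC contents were those at Rassf8 (73.7%), Olfm2 (65.0%), Id1 (63.9%) and Rgmb (63.6%), and the lowest at Hdhd1a (30.8%), 1110006G14Rik (32.6%), 4921530L21Rik (33.5%), Il31ra (33.6%) and Kcnk18 (33.8%).

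The 554 peaks named 491 genes, or 2.20% of the 22367 protein-coding genes and 2.47% of the 19870 with intergenic sequence of their own in reach. A single peak was found at 442 genes, 2 peaks at 38, 3 peaks at 8 and 4 peaks at 3. The 3 genes with 4 peaks were Neurog2, Neurod2 and Lzts1.

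Neurog2, the proneural bHLH factor that commits cortical progenitors to a glutamatergic neuronal fate, had 1 peak 7.28 kb upstream (1821 bp wide, peak 4033) and 3 downstream at 7.25 kb (1726 bp), 13.2 kb (1606 bp) and 19.0 kb (1522 bp). All 4 were wider than the median and spanned 27.9 kb (chr3:127327869-127355811). Their GC content ran from 42.0 to 53.4%, and 2 of the 4, at 13.2 and 19.0 kb, held the E box CAGATG in their middle 500 bp. For this locus and those below, the share over all peaks near coding starts was 54.7% for CAGATG and 41.7% for CAGCTG. It was 36.3% for CACCTG and 36.8% for the Nfi monomer site, so a few matches at 1 locus are common.

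Neurod2, a bHLH factor of differentiating cortical neurons, had 3 peaks downstream at 8.68 kb (1490 bp), 10.2 kb (813 bp) and 12.2 kb (903 bp), and 1 peak of 1996 bp 4.40 kb upstream. Each of the 3 downstream peaks held CAGATG, and the upstream peak held CACCTG and an Nfi monomer site. Beyond the upstream peak stood 3 more, assigned to the next gene, Ppp1r1b, which encodes the dopamine-signalling phosphatase inhibitor DARPP-32. They lay 9.37, 5.63 and 3.10 kb upstream of its start and were 1690, 949 and 595 bp wide. Together the 2 genes held 7 peaks in 28.6 kb (chr11:98178303-98206913), the most peaks in any run of intergenic peaks near coding starts with steps of at most 20 kb.

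Lzts1, a leucine zipper protein, had its 4 peaks spread over 38.5 kb (chr8:71644903-71683439), 2 on each side of the gene, at 17.9 and 8.21 kb upstream and 8.67 and 19.2 kb downstream. Both downstream peaks held CAGATG and CAGCTG, and neither upstream peak did.

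Among the 8 genes with 3 peaks, Btg2 had the 4388 bp peak 16.9 kb downstream, 1 of 918 bp at 7.24 kb downstream and 1 of 808 bp 13.8 kb upstream. A further pair, 1573 and 902 bp wide, followed the upstream one but lay nearer to the start of the gene model Gm8618. Tcf20, a transcriptional co-regulator, had all 3 of its peaks upstream, at 10.2, 16.0 and 17.8 kb. Each of them held CAGCTG, beside 41.7% of all peaks near coding starts. Cryba4, a lens crystallin gene, had its 3 peaks downstream within 11.6 to 14.9 kb, each with CAGATG, beside 54.7% of all peaks near coding starts. Others with 3 were Ppp1r1b and the models Gm10062, 1700106J16Rik and 1110021J02Rik. By the same step of 20 kb, 447 of the 554 peaks had no other peak of this set beside them. Peaks inside genes or farther from a start were not counted in these runs. The nearest p300 peak of any class lay at a median of 51.3 kb, with a first quartile of 15.3 kb.

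**Figure D3:**
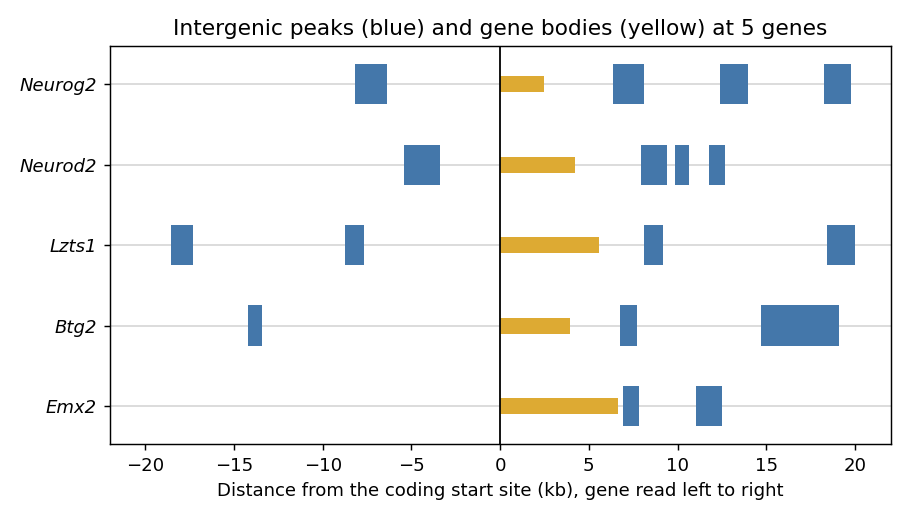
Intergenic p300 peaks (blue) and gene bodies (yellow) at Neurog2, Neurod2, Lzts1, Btg2 and Emx2, by distance in kb from the coding start, each gene read left to right. Neurog2 and Neurod2 each show 1 peak before and 3 after the gene, Lzts1 a pair on each side and Emx2 both peaks after the gene.

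Genes were then described by lists of known roles, each set beside the 2.20% of all coding genes. The nearest coding start belonged to a radial glia gene for 7 of 28 listed genes (25%, exact 95% interval 10.7 to 44.9%), which held 13 peaks. Besides Neurog2 with 4, Emx2, a homeobox gene that patterns the cortex, had 2 peaks 7.39 and 11.8 kb downstream, 905 and 1448 bp wide. Its relative Emx1 had 1 peak 19.6 kb downstream. Hes5, a Notch effector that holds progenitors undifferentiated, had 1 of 1757 bp 12 kb upstream. The peak of Sox3, a stem cell factor, was 735 bp wide and lay 6.20 kb upstream. Of the 28 genes, 21 (75%) had a p300 peak of any kind within 100 kb of the start, against 5408 of the 22367 coding genes (24.2%).

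Intermediate progenitor genes had the highest share of the lists, 7 of 20 (35.0%, interval 15.4 to 59.2%) with 9 peaks. Insm1, a zinc finger factor that promotes the generation of these cells, had its peak 3.64 kb upstream (1066 bp), and the stress-response gene Gadd45g 4.59 kb upstream (1414 bp). The bHLH genes Nhlh1 and Nhlh2 had 1 peak each, 3.58 kb upstream (1486 bp) and 14.9 kb downstream (1260 bp). Sox4 had its peak of 2920 bp 5.22 kb upstream, and Sox11, which acts with it in newborn neurons, 1 of 1396 bp 14.5 kb upstream. Btg2 completed the list with 3. The peaks of these 7 genes were between 808 and 4388 bp wide, and 7 of the 9 exceeded the median of 1014 bp.

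Neuronal lists followed. Of 28 genes of neuronal differentiation, 4 had a peak (14.3%, interval 4.03 to 32.7%). They were Neurod2, its relative Neurod6 (19.7 kb upstream), the cell adhesion gene Cntn2 (15.3 kb upstream) and the zinc finger gene Scrt2 (12.2 kb upstream). Among 19 upper-layer genes the 4 (21.1%, interval 6.05 to 45.6%) were the POU factors Pou3f1 (15.1 kb downstream, 1899 bp) and Pou3f3 (10.5 kb upstream, 1390 bp), the cadherin Cdh13 (12.6 kb upstream) and the growth factor Ptn (7.95 kb upstream). Deep-layer genes had only 1 of 20 (5.0%, interval 0.127 to 24.9%), Fezf2, the zinc finger gene that specifies subcerebral projection neurons, with a peak of 2034 bp 7.87 kb downstream. Any peak within 100 kb was found at 14 of the same 20 genes (70.0%), beside 24.2% of all coding genes. Of these 20 genes 5, Sox5, Foxp1, Foxp2, Nfia and Nfib, had no intergenic sequence of their own to hold a peak near the start. No peak was assigned to the 12 genes of Cajal-Retzius cells and reelin signalling (exact interval up to 26.5%, beside a floor of 3 counts in 12 genes of 25%).

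Axon guidance genes had 6 of 39 (15.4%, interval 5.86 to 30.5%). All 6 peaks were upstream, as were 72.2% of all 554 peaks near coding starts. The receptors Robo3 and Unc5a had theirs at 5.04 and 13.0 kb, the semaphorin receptor Plxna2 at 6.18 kb, the ephrin receptors Epha4 and Ephb2 at 17.5 and 5.28 kb, and Cntn2, also on this list, at 15.3 kb. In the Notch pathway 3 of 25 genes had a peak (12%, interval 2.55 to 31.2%), namely the ligand Dll1 with 2810 bp 4.89 kb upstream, the non-canonical ligand Dlk1 with 892 bp 9.48 kb upstream, and the target Hes5. Chromatin and co-repressor genes had 5 of 30 (16.7%, interval 5.64 to 34.7%), all upstream, beside the same 72.2% over all peaks near coding starts. They included the co-repressor gene Tle2 (4.12 kb), the histone demethylases Kdm6b (4.70 kb, 2400 bp wide) and Kdm5b (3.26 kb), and the co-regulator Mn1 (3.13 kb).

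Other lists were set up for contrast. Of 41 genes of non-neural tissues none had a peak (exact interval up to 8.60%, beside a floor of 3 counts in 41 genes of 7.32%). Any peak within 100 kb was found at 9 of them (22%), close to the 24.2% of all coding genes. Their intergenic reach was 0.613 Mb. Of 20 subpallial genes 3 had a peak (15.0%, interval 3.21 to 37.9%). They were Sp8 (5.5 kb upstream), a zinc finger gene that also patterns the cortex, Foxp4 (18.9 kb upstream) and Zfhx3 (11 kb upstream). Ribosomal protein genes, active in every cell, had 4 of 79 (5.06%, interval 1.4 to 12.5%), which were Rpl15, Rps14, Rps24 and Rps27l. Each of these 4 peaks had at least 2 coding starts within 20 kb, beside 114 of all 554 peaks near coding starts (20.6%). Some peaks of the cortical lists, such as those of Pou3f3 and Kdm5b, did too.

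By gene family, Sox genes had 4 of 18 (22.2%, interval 6.41 to 47.6%), with Sox21 beside Sox3, Sox4 and Sox11, and Fox genes had 5 of 42 (11.9%, interval 3.98 to 25.6%), which were Foxb2, Foxd3, Foxn3, Foxo6 and Foxp4. Pou genes had 2 of 14 (Pou3f1 and Pou3f3), Hox genes 1 of 39 (Hoxa13), and the 9 Pax, 8 Lhx and 4 Nfi genes none, the last with intergenic sequence in reach at only 1. Lists share genes, Hes5, Cntn2, Sox4 and Sox11 among them, so their counts do not add up. The intervals of the radial glia, intermediate progenitor, upper-layer, neuronal differentiation, Notch, axon guidance, chromatin, subpallial, Sox and Fox lists lay above 2.20%, and those of the other lists included it. Genes with more intergenic sequence can hold more peaks, and the median reach was 20 kb for genes with a peak and 12.3 kb for those without. Per megabase of that reach, peaks numbered 1.90 (1.74 to 2.06) over all coding genes, 27.1 (14.4 to 46.3) for radial glia genes, 24.9 (11.4 to 47.4) for intermediate progenitor genes and 17.5 (7.02 to 36) for neuronal differentiation genes. These intervals treat neighbouring peaks of 1 gene as independent. Neurog2 gave 4 of the 13 radial glia peaks and Neurod2 4 of the 7 of neuronal differentiation. With peaks under 5 kb apart joined, Neurog2 had 2 and Neurod2 had 1. The densities of the Sox, chromatin, upper-layer, axon guidance and Fox lists ran from 7.17 (2.33 to 16.7) to 13.2 (3.60 to 33.9), with intervals above 1.90. For the Notch list, at 7.88 (1.63 to 23.0), and the subpallial list, at 7.20 (1.48 to 21.0), the intervals took in 1.90, as did those of the deep-layer list, at 3.88 (0.0983 to 21.6), the ribosomal list, at 4.81 (1.31 to 12.3), and the remaining lists. With a limit of 10 kb, which left 257 genes in all, 5 radial glia and 5 intermediate progenitor genes had a peak, but only 1 upper-layer, 1 neuronal differentiation, 1 subpallial, 2 Fox and 3 axon guidance genes and no Pou gene did.

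**Figure D4:**
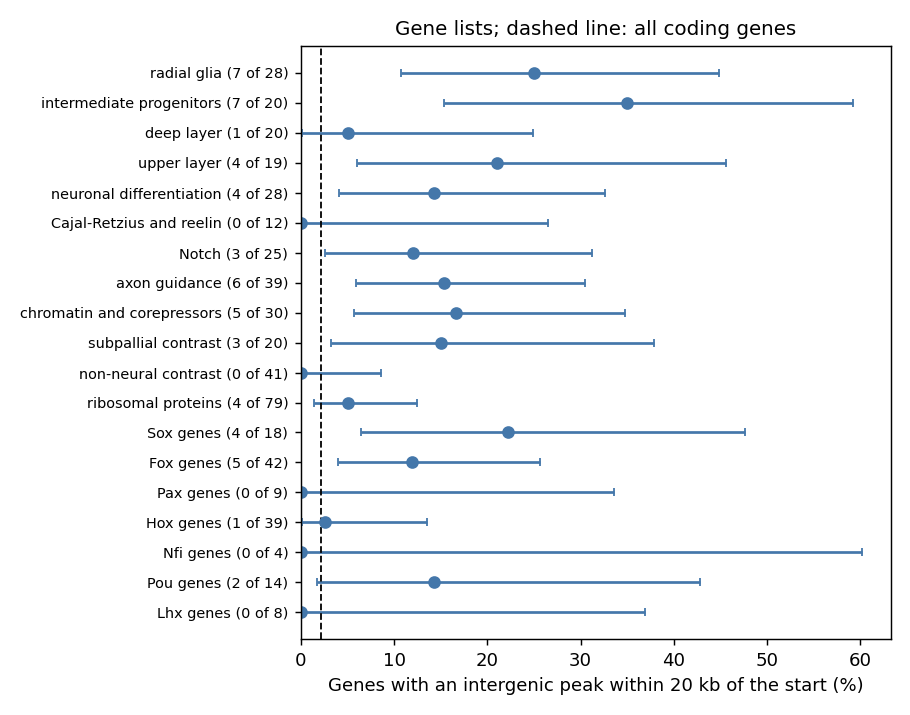
Share in percent (horizontal axis) of the genes of each list with an intergenic p300 peak within 20 kb of the start, with exact 95% intervals, and in brackets the number of genes with a peak of those annotated. The dashed line marks the 2.20% of all coding genes, and the points run from 0% for the non-neural list to 35.0% for intermediate progenitors.

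Motifs were counted in the middle 500 bp of each peak and beside them in all 496891 windows of the same length that tile the intergenic sequence 2.5 to 20 kb from coding starts. The E box CAGATG, the form preferred by Neurog2 and Neurod factors, was present in 303 of 554 peaks (54.7%, interval 50.4 to 58.9%) and in 34.7% of the windows. CAGCTG, which several bHLH factors bind, was in 41.7% of peaks and 17.8% of windows, 2.34 times the share. The other E boxes were closer to the windows, with CACCTG in 36.3% of peaks against 29.1% and CACGTG in 7.22% against 5.14%. The Nfi monomer site was in 36.8% and 22.6%, the POU octamer in 6.50% and 4.06%, and the homeodomain site TAATTA in 19.9% and 14.5%. The Rfx monomer site was in 18.1% and 13.4%, and the T-box site in 9.39% and 6.85%. The AP-1 site, at 15.2% of peaks and 14.1% of windows, and the Sox site ACAAAG, at 41.5% and 39.2%, had window shares within the intervals of the peaks. The other Sox form, ACAATG, was in 23.3% of peaks (interval 19.8 to 27.0%), below the 27.4% of windows. This depended on the limit, since with 10 kb it was in 28.8% of peaks (interval 23.5 to 34.6%). The full Nfi dimer (TTGGC and its reverse complement GCCAA, 5 bases between them) was found in only 3 peaks (0.542%, against 0.0382% of windows). The cyclic AMP response element was in 5 (0.903%, against 0.289% of windows). The GC box GGGCGG, the Sp site common at promoters, was in 20.9% of peaks and 4.84% of windows, a ratio of 4.33. The windows were not matched to the peaks for GC content. Its median was 49.3% in the peaks, while intergenic sequence at 5 to 10 kb was 42.8% GC. How far this difference accounts for the contrasts with windows was not tested.

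Motif shares were also set beside those of the other peaks. CAGATG was in 57.6% and CAGCTG in 39.5% of all other peaks, both within the intervals of the peaks near coding starts. The Nfi monomer site was in 36.8% (32.8 to 41.0%) near coding starts and 42.8% of the others. ACAATG was in 23.3% (19.8 to 27.0%) and 27.5%. For both, the share of the others lay above the interval. With a limit of 10 kb the interval for ACAATG, 23.5 to 34.6%, took in 27.5%. CACCTG was in 36.3% (interval 32.3 to 40.4%) near coding starts, 32.2% at 20 to 100 kb, 26.1% beyond 100 kb and 30.1% inside genes. TAATTA was in 19.9% of the peaks near coding starts, 28.3% at 20 to 100 kb, 37.4% beyond 100 kb and 31.0% inside genes. The GC box had the opposite order, with 20.9%, 15.5% and 8.20% by distance and 11.5% inside genes. GC content moved with both. Split into 4 groups at the quartiles of GC content of all peaks, a breakdown chosen after the motif counts were seen, TAATTA was in 46.6% of the peaks near coding starts and 46.9% of the others in the least GC-rich group, and in 14.0% and 17.1% in the richest. Between 45.2 and 50% GC it was in 14.9% (interval 9.999 to 21.1%) and 25.5% (23.3 to 27.8%), where the intervals did not overlap. The GC box was in 36.4% (30.3 to 42.9%) and 26.2% (24.0 to 28.6%) in the richest group, and in 0 of 58 and 2.56% in the poorest. CAGCTG was in 15.5% (7.35 to 27.4%) and 29.8% (27.6 to 32.1%) in the poorest group, where the intervals did not overlap, and in 51.3% and 52.0% in the richest. CAGATG was in 53.8% (47.2 to 60.3%) and 61.1% (58.55 to 63.7%) in the richest group, where the intervals overlapped. The part of GC content in these differences was not tested further.

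**Figure D5:**
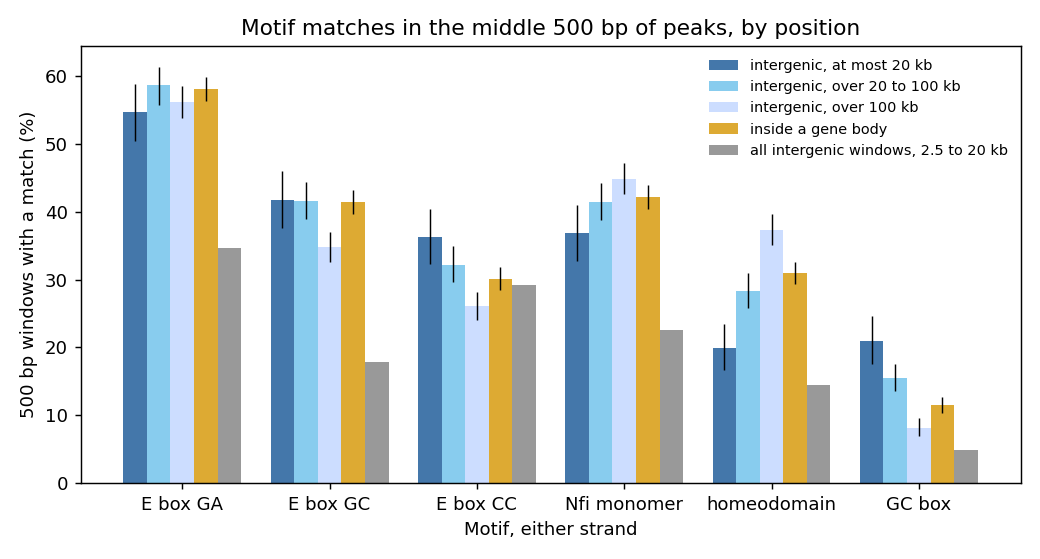
Share in percent (vertical axis) of middle 500 bp windows holding each of 6 motifs on either strand, for peaks in 4 positions (coloured bars, exact 95% intervals as lines) and for all intergenic windows 2.5 to 20 kb from coding starts (grey). The homeodomain bars stand at 19.9% near coding starts and 37.4% beyond 100 kb, and the GC box bars at 20.9% and 8.20%.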

How the data were processed

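Reads from 1 p300 ChIP library and 1 input library of the E14.5 dorsal cerebral wall were aligned by the authors with ELAND to mm9, keeping unique alignments, and MACS (1.4, by the submitters' processing notes) called peaks against the input. Peaks touching an exon, lying under 2.5 kb from a knownGene start or possibly mapped non-uniquely had been dropped by the authors. What was deposited lists chromosome, start, end and number, with no score, so depth per peak is unknown. The input library was not analysed here.

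Midpoints were placed on NCBIM37 (the mm9 assembly) and 37273 genes of GENCODE vM1, 22367 of them protein-coding. Densities divide peaks by intergenic bases at the same distance. Motifs were exact matches on either strand. Shares carry exact Clopper-Pearson and densities exact Poisson 95% intervals, medians intervals from order statistics. With 1 library no test was made. Python 3.11.15, numpy 2.4.6, scipy 1.17.1, numba 0.67.0 and matplotlib 3.10.9 were used, and positions, territory and motif counts were tested on simulated data. The peaks, gene lists and motifs were chosen with earlier results of these data known. Named genes were listed genes with a peak, genes with 3 or more, the 5 closest, the 3 on each side of the limit, the 5 widest, and the 5 highest and 5 lowest in GC content. Others (the 5 narrowest, the next 3 closest, and gene models beside Btg2) were named after their values were seen. Alternatives changed the distance limit, gene bodies, starts, peak joining, peak width and motif window. A few genes meeting this rule are not reported here.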

Additional observations from a re-analysis of the deposited data

How the results depend on the processing

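Of the processing choices, 10 alternatives were computed, and 6 of them (coding gene bodies only, whole peak outside genes, the start of every coding transcript, starts without gene models, peaks under 5 kb apart joined, and no peak under 2.5 kb) left the number of peaks and of genes within 1.5 times 554 and 491. A limit of 10 kb gave 271 peaks at 257 genes, 1.63 per Mb and 80.1% upstream, with upper-layer genes going from 4 to 1, neuronal differentiation from 4 to 1, axon guidance from 6 to 3, subpallial from 3 to 1, Fox from 5 to 2 and Pou from 2 to 0, and with 2 peaks left at each of Neurog2, Neurod2 and Lzts1. The share with ACAATG went from 23.3 to 28.8% at 10 kb. In turn, a limit of 50 kb gave 1173 peaks at 941 genes and 2.25 per Mb. Keeping peaks of median width or wider, the only stricter list that could be made, gave 275 peaks at 255 genes, 0.942 per Mb, a median width of 1283 bp and CAGATG in 48.7%. Leaving out peaks under 2.5 kb gave 2.20 per Mb, and leaving out starts of gene models gave 76.0% upstream. In the middle 200 bp CAGATG was in 34.7% of peaks. A shorter window holds fewer matches, and intergenic windows of 200 bp were not counted. This value therefore cannot be set beside the share of 500 bp windows. Joining peaks under 5 kb apart left 1 peak at Neurod2, 2 at Neurog2 and 1 each at Ppp1r1b, Emx2, Cryba4 and Tcf20. No paired analysis was possible because there was 1 library of each kind and no test. With no score or read count in the list, a weak peak cannot be told from a strong one, and an absent peak may be below the threshold or removed by the authors' filters.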

Other observations

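Of the 554 peaks, 22 (3.97%, exact 95% interval 2.51 to 5.95%) had over 50% GC and an observed-to-expected CpG ratio over 0.6, the composition of a CpG island, beside 2.42% of intergenic peaks at 20 to 100 kb, 0.275% beyond 100 kb and 0.563% inside genes. The highest ratios among them were at Zfyve9 (0.935, 48 bp from the start), Zfhx3 (0.915, 11 kb upstream), Chd2 (0.888, 16.8 kb upstream), a chromatin remodeller gene, and Gm10775 (0.870, 18.4 kb upstream). Others of the 22 were at the growth-arrest gene Cdkn1c, 15.8 kb downstream (0.769), the Wnt ligand gene Wnt11, 19.4 kb upstream (0.670), and Id1, 12.1 kb upstream (0.614). Only those of Zfyve9 and Rassf8 lay under 2.5 kb from the coding start, and whether the 22 hold starts of unannotated transcripts was not tested.

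Genes on no list also held peaks. Those named here were picked because they held one, so they say nothing of how often genes of their kind do. Fos had 2 peaks upstream at 5.81 and 18.3 kb, Fosb 1 at 10 kb upstream, Ier2 1 at 6.47 kb downstream and Ier5 1 on each side, at 12.1 kb upstream and 7.17 kb downstream. The cytokine-signalling inhibitor Socs3 likewise had 1 on each side, 6.79 kb upstream and 5.63 kb downstream. Transcription factor genes with a peak included Olig2 (6.85 kb downstream), Olig3 (17.4 kb downstream) and Ptf1a (10.7 kb downstream). Others were the tubulin genes Tuba1a (15.6 kb upstream) and Tubb2b (3.48 kb upstream) and the small GTPase gene Rnd2 (9.69 kb downstream). By chromosome, the peaks near coding starts made up 5.20% (14 of 269) of the peaks of chromosome 16 and 13.7% (53 of 388) of those of chromosome 11, the lowest and highest shares among chromosomes with peaks.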
